A study of Mus musculus with 6 samples.

Results

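The genes described here encode ligands through which a tumour cell can restrain or stimulate immune cells. They were 10 genes taken by symbol (Cd274, Cd276, Pvr, Nectin2, Cd47, Cd24a, Nt5e, Tnfsf9, Cd80 and Icosl), and all 10 were found among the 55487 genes of the deposited count table. The genes were chosen by symbol without a threshold on the values, though with earlier results of these data known. They were measured by bulk RNA sequencing of 4T1, a mammary carcinoma line that arose in a BALB/c mouse, in cells kept for 12 h with 10 µM cepharanthine (CEP), an alkaloid of Stephania plants, or with the same volume of its solvent dimethyl sulfoxide (DMSO). There were 3 CEP libraries and 3 DMSO libraries, all of 1 cell line, and no source says whether replicates were separate cultures, so p-values measure the spread between these libraries. The comparison asks which transcripts differ in level between cepharanthine-treated and solvent-exposed cells.

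Immune checkpoint ligands work by binding receptors on T cells, NK cells and macrophages. PD-L1 (Cd274) binds PD-1 and dampens T cells. CD80 and ICOSL are B7-family ligands of the costimulatory receptors CD28 and ICOS, CD80 also binding the inhibitory CTLA-4, and B7-H3 (Cd276) is a B7-family member whose receptor is not settled. PVR (CD155) and nectin-2 (CD112, Nectin2) are adhesion proteins read by the activating receptor CD226 and the inhibitory receptors TIGIT and, for PVR, CD96. CD47 and CD24 are signals against phagocytosis, CD47 being read by SIRP-alpha on macrophages. CD73 (Nt5e) makes immunosuppressive adenosine from AMP, and 4-1BBL (Tnfsf9) stimulates T cells through 4-1BB (Tnfrsf9).

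Where 3 values per group are listed, they belong to replicates 1, 2 and 3 in that order. Library totals ran from 15299261 to 19655010 counts. CEP replicate 1 stood apart: chi-square per degree of freedom over genes was 9.03 and 10.9 against CEP replicates 2 and 3, which differed from each other by 2.27, and 1.81 to 3.53 between DMSO libraries. Levels are given in CPM, read counts scaled to a common library size with the TMM factors of edgeR. All 7 epithelial markers examined were detected and tested, with a summed level of 3640 to 3791 CPM in CEP and 4204 to 4371 CPM in DMSO. They did not move together in the edgeR test described below. Krt8, Krt18 and Krt7 were lower in CEP at an adjusted p under 0.05, Epcam, Krt19 and Cdh1 were higher, and Krt14 did not pass. The 8 leukocyte markers summed to 1.87 to 2.34 CPM in CEP and 1.48 to 1.59 CPM in DMSO. Among them, Adgre1 had 0 counts in every library, and Ptprc (CD45) had at most 3. Flt3 made up most of the leukocyte sum in every library, with 27 to 30 reads in CEP and 19 to 24 reads in DMSO. Its means were 1.68 CPM in CEP and 1.20 CPM in DMSO, with no overlap, and it did not pass (edgeR adjusted p = 0.180). The 4 fibroblast markers summed to 0.680 to 1.17 CPM in CEP and 0.657 to 0.766 CPM in DMSO, with Col3a1 at 0 counts, and the 3 endothelial markers to 0.157 to 0.455 CPM in CEP and 0.177 to 0.460 CPM in DMSO, with Kdr at 0 counts.

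Promoter sequence, which shows the start region of genes that changed and of one that did not pass the test, is given for 3 of the 7 ligand genes that have an entry in the RefSeq promoter table (GRCm38.p6). Each runs from 250 bases before to 50 bases after the start of transcription, 5′ to 3′ along the gene, and capitals mark a match to one of the motifs listed below them. Cd274 lies at chr19:29367188-29367487 on the plus strand, Nectin2 at chr7:19749524-19749823 on the minus strand and Icosl at chr10:78069118-78069417 on the plus strand.
Cd274: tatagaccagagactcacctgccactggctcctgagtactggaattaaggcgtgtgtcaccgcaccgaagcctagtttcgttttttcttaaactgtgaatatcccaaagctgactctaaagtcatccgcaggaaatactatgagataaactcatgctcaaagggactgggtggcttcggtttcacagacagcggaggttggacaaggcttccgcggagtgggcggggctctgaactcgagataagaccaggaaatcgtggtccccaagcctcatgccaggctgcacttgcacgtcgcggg
Nectin2: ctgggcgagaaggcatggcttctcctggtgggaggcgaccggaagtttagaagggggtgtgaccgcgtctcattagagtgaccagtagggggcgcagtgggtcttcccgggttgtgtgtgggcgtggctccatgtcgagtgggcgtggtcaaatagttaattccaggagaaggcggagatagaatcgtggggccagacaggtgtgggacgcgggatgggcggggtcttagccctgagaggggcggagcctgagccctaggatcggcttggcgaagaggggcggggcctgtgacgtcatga
Icosl: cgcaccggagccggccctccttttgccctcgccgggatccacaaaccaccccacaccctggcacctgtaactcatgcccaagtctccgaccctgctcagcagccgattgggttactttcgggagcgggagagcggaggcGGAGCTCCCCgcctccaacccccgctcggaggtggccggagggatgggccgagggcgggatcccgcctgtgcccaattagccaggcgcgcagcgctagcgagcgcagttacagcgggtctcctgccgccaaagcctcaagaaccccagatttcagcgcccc

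Both strands were searched for GAAA, any 2 bases and GAAA (interferon response type), TTCNNNGAA (STAT type), TGANTCA (AP-1), TGATGNAA (ATF4 type), CACGTG (E-box) and the NF-kB consensus. Over the 8 promoters of these 7 genes there were 2 matches, an NF-kB match on the minus strand of the Icosl promoter, 111 bases before the start, and an AP-1 match in the Cd80 promoter, 42 bases before the start. The Cd274 and Nectin2 windows held none of these letter strings. Of all 32851 promoters of this length in the table, 8.46% held the NF-kB match, 7.81% the AP-1 match, 3.44% the interferon response type, 8.30% the STAT type, 3.97% the ATF4 type and 7.15% the E-box. The G and C content was 52.7% for Cd274, 62.7% for Nectin2 and 68.0% for Icosl, against a median of 52.7% over the table.

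Transcripts of Pvr, Tnfsf9, Cd274, Nectin2 and Cd24a rose in cepharanthine-treated cells. Pvr rose 2.23-fold and was the member with the largest difference, Tnfsf9 rose 1.90-fold, and Cd274 rose 1.87-fold at a very low level. Nectin2 and Cd24a rose 1.20-fold and 1.16-fold. Cd276, Cd47, Nt5e and Icosl did not pass the test, and Cd80 was too low to test. Of the 9 tested members 5 rose and 0 fell, calling a gene where p from edgeR's quasi-likelihood model, after Benjamini-Hochberg adjustment, was under 0.05, with 0 lower at an unadjusted p under 0.05 and 0 lower with DESeq2 or limma-voom. Over all 13405 tested genes 20.1% were called higher, 18.2% lower and 38.2% in either direction. The members' median log2 fold change (CEP minus DMSO) was 0.26, and that of all tested genes was 0.01. Because the members were chosen with earlier results known, these shares and medians are a description. In bulk RNA, more RNA per cell and more cells expressing a gene cannot be told apart. With 1 of CEP replicates 2 and 3 or of the DMSO replicates left out, 3 members rose (Pvr, Tnfsf9 and Cd24a), and 5 rose without CEP replicate 1.

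**Figure D1:**
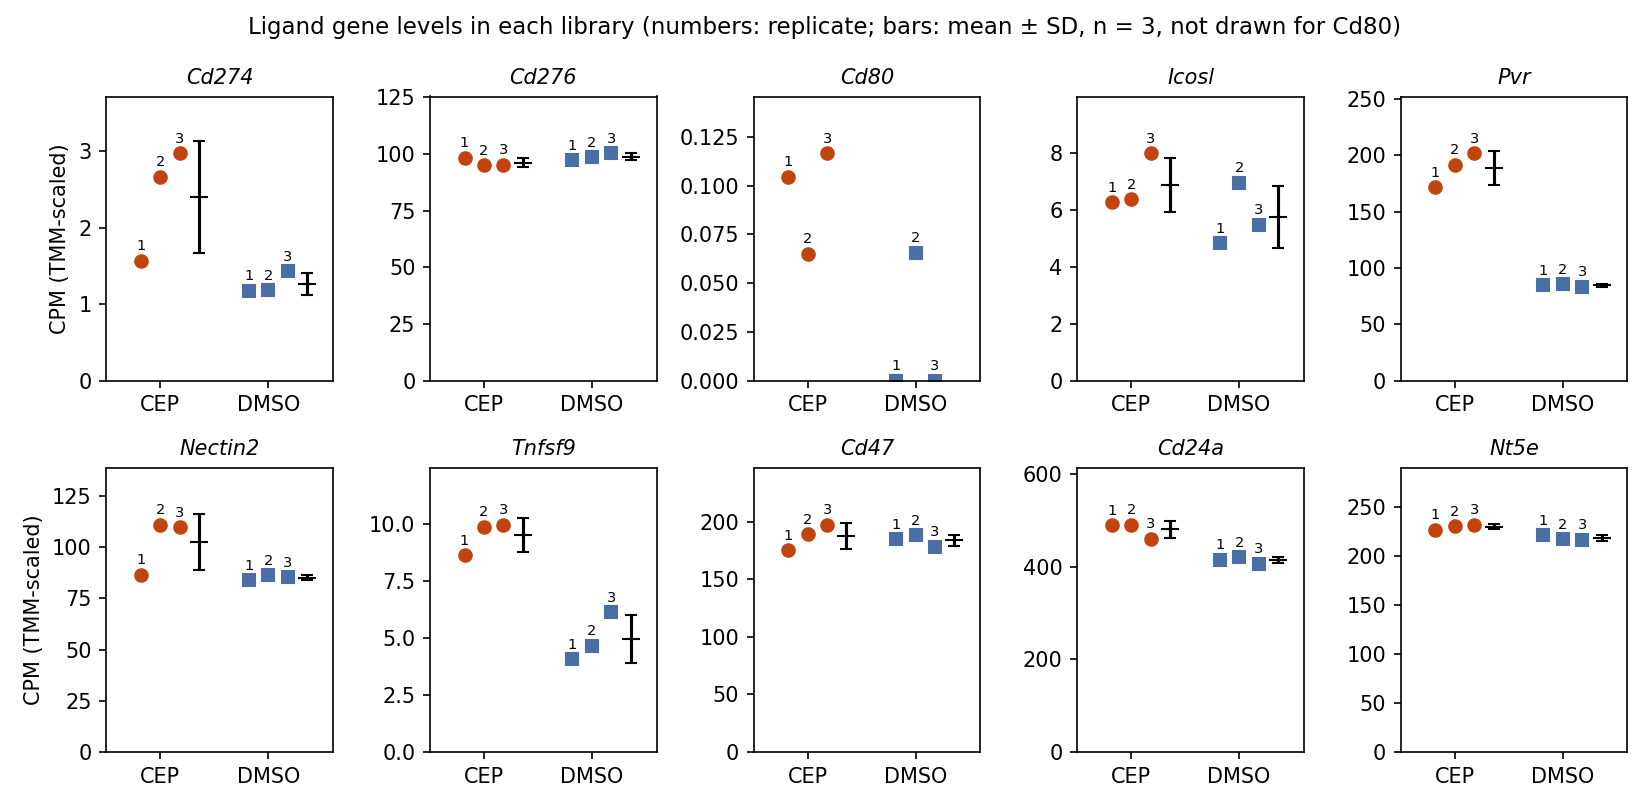
CPM (TMM-scaled, linear axes from 0) of the 10 ligand genes in the 3 CEP libraries (circles) and 3 DMSO libraries (squares), with the replicate number at each point and the mean ± SD beside it except for Cd80. The groups are farthest apart for Pvr, at 172 to 202 CPM in CEP and 83.4 to 85.4 CPM in DMSO, while Cd274 and Nectin2 in CEP replicate 1 lie close to the DMSO libraries.

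Pvr, the gene of the CD155 ligand of TIGIT, CD96 and CD226 (ENSMUSG00000040511, chr7:19903578-19921160, minus strand), stood at 172, 192 and 202 CPM in CEP, against 84.5, 85.4 and 83.4 CPM in DMSO. Every CEP library lay above every DMSO library, CEP replicate 1 being the lowest of the CEP libraries. The log2 fold change was 1.16 ± 0.0581 (SE, edgeR quasi-likelihood test, adjusted p = 5.86e-09), the 218th highest of 13405 tested genes. It was the only member called at 2-fold or more, as were 2.44% of all tested genes in that direction. Its log2 fold change ran from 1.11 to 1.21 over the alternatives.

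Nectin2, the gene of the CD112 ligand (ENSMUSG00000062300, chr7:19716644-19750483, minus strand), encodes a protein of the same nectin family. It had 86.5, 111 and 110 CPM in CEP, against 83.7, 86.3 and 85.5 CPM in DMSO. CEP replicate 1 lay just above the highest DMSO library, well below the other 2 CEP libraries. The log2 fold change was 0.26 ± 0.0823 (SE, edgeR quasi-likelihood test, adjusted p = 0.0242), and 0.36 without CEP replicate 1 (adjusted p = 2.88e-08). The call ended without CEP replicate 2 or 3 (edgeR adjusted p = 0.0950 and 0.0915) and without DMSO replicate 1, 2 or 3 (0.0777, 0.0587 and 0.0689, alternatives 2.88e-08 to 0.0950).

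Within each library the ratio of these genes does not depend on scaling. The log2 ratio of Pvr to Nectin2 counts was 0.99, 0.79 and 0.88 in CEP, against 0.01, -0.02 and -0.04 in DMSO. The groups did not overlap, and the means differed by 0.90 (exact two-sided permutation p = 0.10, the smallest that 3 against 3 libraries allow). The ratio of Pvr to Cd276 likewise averaged 0.97 ± 0.145 in CEP and -0.22 ± 0.0353 in DMSO (SD, n = 3 each, exact permutation p = 0.10). In all 4 such ratios were compared, each with a Benjamini-Hochberg adjusted p of 0.10.

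The genes for PVR and nectin-2 lie on the same strand of chromosome 7, with 153094 bases between them. Of the 9 tested genes over that span, both included, 6 rose, 0 fell and 3 did not pass. The shares over all tested genes were 20.1% higher and 18.2% lower. Those that rose include Pvr and Nectin2 themselves, and Gm44659 at a low level (1.22 CPM in CEP and 0.575 CPM in DMSO, edgeR adjusted p = 0.0476). Bcl3, an NF-kB cofactor gene in between, rose by 0.33 ± 0.114 on the log2 scale (18.6 CPM in CEP and 14.7 CPM in DMSO, edgeR adjusted p = 0.0317), and Ceacam16 rose by 1.14 ± 0.307 at a low level (2.80 CPM in CEP and 1.26 CPM in DMSO, edgeR adjusted p = 0.00910). Bcam did not pass, at 38.9 CPM in CEP, against 34.8 CPM in DMSO. Gm16184, a gene on the opposite strand within Pvr, rose by 1.06 ± 0.235 (6.47 CPM in CEP and 3.12 CPM in DMSO, edgeR adjusted p = 0.00305). Its count is uncertain, because the strand setting of the counting is not given, and the part of Pvr reads in it was not tested. In GENCODE mouse release 21 no base of a Pvr exon is shared with another gene's exon, and none of 6049 distinct 50-base stretches of its transcripts is found in another gene's transcript.

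Cd274, the PD-L1 gene (ENSMUSG00000016496, chr19:29367455-29388095, plus strand), had 30, 41 and 51 reads in CEP, against 20, 18 and 28 reads in DMSO. In scaled terms that was 1.57, 2.67 and 2.97 CPM in CEP and 1.18, 1.18 and 1.43 CPM in DMSO. The groups did not overlap, but CEP replicate 1 lay close to the highest DMSO library. The log2 fold change was 0.90 ± 0.293 (SE, edgeR quasi-likelihood test, adjusted p = 0.0247). It was 1.13 without CEP replicate 1 (adjusted p = 0.00111), and the call ended with DESeq2 (adjusted p = 0.0584) and in edgeR without CEP replicate 2 or 3 (0.0854 and 0.127) or without DMSO replicate 1, 2 or 3 (0.0755, 0.0752 and 0.0506, alternatives 0.00111 to 0.127). An antisense gene covers 14.1% of its exon bases and had 31 reads in all 6 libraries. The strand setting of the counting is not given, so the part of antisense reads in the Cd274 counts was not tested.

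Cd276, the B7-H3 gene (ENSMUSG00000035914, chr9:58524298-58555437, minus strand), had 98.3, 94.9 and 95.2 CPM in CEP, against 97.2, 98.6 and 100 CPM in DMSO. The groups overlapped, with a log2 fold change of -0.04 ± 0.0478 (SE, edgeR adjusted p = 0.564). Over the alternatives the value ran from -0.07 to -0.03. A gene on the opposite strand covers 11.4% of its exon bases and had 10 reads in all 6 libraries.

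Icosl, the gene of the ICOS ligand (ENSMUSG00000000732, chr10:78069302-78083913, plus strand), had 6.28, 6.37 and 7.99 CPM in CEP, against 4.83, 6.96 and 5.47 CPM in DMSO. DMSO replicate 2 lay above 2 of the CEP libraries, and the log2 fold change of 0.26 ± 0.168 did not pass (SE, edgeR adjusted p = 0.230). Cd80 (ENSMUSG00000075122, chr16:38455561-38496335, plus strand) had 2, 1 and 2 reads in CEP, against 0, 1 and 0 reads in DMSO. Those sums of 5 and 1 have exact Poisson 95% intervals of 1.62 to 11.7 in CEP and 0.0253 to 5.57 in DMSO, which overlap and cover counting error only. A difference in Cd80 was not detectable at this depth.

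Tnfsf9, the gene of 4-1BBL, a TNF-family ligand that costimulates T cells (ENSMUSG00000035678, chr17:57105325-57107757, plus strand), had 8.63, 9.88 and 9.97 CPM in CEP, against 4.06, 4.66 and 6.14 CPM in DMSO. All CEP libraries lay above all DMSO libraries. The log2 fold change was 0.92 ± 0.159 (SE, edgeR quasi-likelihood test, adjusted p = 4.48e-04), between 0.79 and 1.12 over the alternatives. Gm11110, on the opposite strand, covers 14.9% of its exon bases and had 506 reads in all 6 libraries. It had 4.96 CPM in CEP, against 4.81 CPM in DMSO (log2 fold change 0.04 ± 0.152, edgeR adjusted p = 0.858). The Tnfsf9 count is therefore uncertain, and the part of antisense reads in it was not tested.

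Cd24a (ENSMUSG00000047139, chr10:43578284-43584265, plus strand) encodes a small glycosyl-phosphatidylinositol-anchored glycoprotein and had the highest level per deposited exon length of the set. It had 490, 491 and 460 CPM in CEP, against 415, 421 and 407 CPM in DMSO. The groups did not overlap, and unlike Cd274 and Nectin2 it stood as high in CEP replicate 1 as in the others. The log2 fold change was 0.21 ± 0.0467 (SE, edgeR quasi-likelihood test, adjusted p = 0.00242). Of its 2510 distinct 50-base stretches 2.75% occur in another gene's transcript, Gm6212 holding the most.

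Cd47, which encodes the ligand of SIRP-alpha (ENSMUSG00000055447, chr16:49800533-49915010, plus strand), had 175, 189 and 198 CPM in CEP, against 185, 188 and 178 CPM in DMSO. The DMSO libraries lay inside the CEP range, and the log2 fold change of 0.03 ± 0.0518 did not pass (SE, edgeR adjusted p = 0.715). It turned to -0.00357 with upper-quartile scaling and to -0.01 without CEP replicate 3. The log2 ratio of Cd24a to Cd47 counts was 1.48, 1.38 and 1.22 in CEP, against 1.17, 1.16 and 1.19 in DMSO, a difference in means of 0.19 with no overlap (exact two-sided permutation p = 0.10).

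Nt5e, the CD73 gene (ENSMUSG00000032420, chr9:88327197-88372092, plus strand), had 227, 230 and 232 CPM in CEP, against 221, 217 and 216 CPM in DMSO. All CEP libraries were higher, but the log2 fold change of 0.07 ± 0.0433 did not pass (SE, edgeR adjusted p = 0.195). With Nt5e, the groups did not overlap for 6 of the 9 tested members, each higher in CEP, which was 66.7%. Over all tested genes the groups did not overlap for 25.2% with CEP higher, 24.7% with CEP lower and 49.9% in all.

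**Figure D2:**
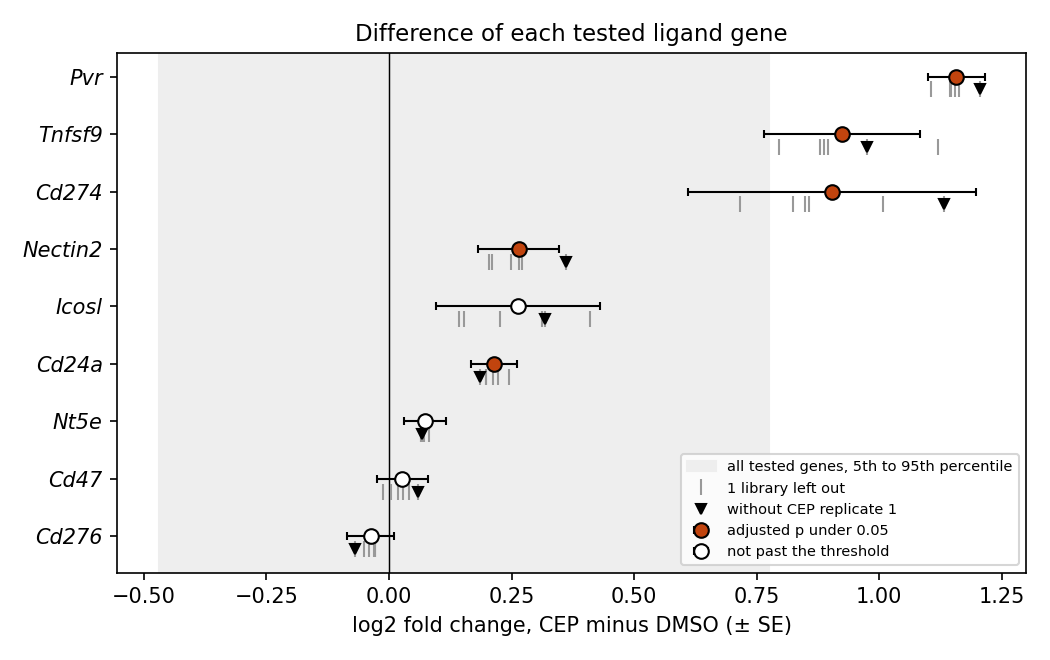
Log2 fold change (CEP minus DMSO, ± SE) of the 9 tested ligand genes, filled where the edgeR adjusted p was under 0.05, with ticks for the value when 1 library was left out and a triangle for the value without CEP replicate 1. The grey band spans the 5th to 95th percentile of all tested genes, -0.47 to 0.77, and Pvr, Tnfsf9 and Cd274 lie to its right.

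Per exon length the set spanned a wide range of levels. RPKM, the CPM per 1 kb of exon, use the exon lengths of the deposited table. In CEP the order of mean RPKM was Cd24a (265 ± 9.62), Cd47 (98.7 ± 5.94), Pvr (64.8 ± 5.23), Nt5e (57.5 ± 0.660), Nectin2 (37.5 ± 5.05), Cd276 (26.7 ± 0.530), Tnfsf9 (7.36 ± 0.579), Icosl (4.07 ± 0.568), Cd274 (0.663 ± 0.204) and Cd80 (SD, n = 3). In DMSO it was Cd24a (228 ± 3.95), Cd47 (96.9 ± 2.63), Nt5e (54.6 ± 0.675), Nectin2 (31.1 ± 0.485), Pvr (29.1 ± 0.353), Cd276 (27.4 ± 0.422), Tnfsf9 (3.84 ± 0.828), Icosl (3.40 ± 0.646), Cd274 (0.349 ± 0.0402) and Cd80 (SD, n = 3). With these lengths Pvr was the third highest in CEP and the fifth highest in DMSO. It lay above Nt5e and Nectin2 in CEP and below both in DMSO. Neighbours in the order did not overlap between libraries, except Tnfsf9 and Icosl in DMSO. That covers the spread between libraries, not the choice of exon length. For Cd47, Pvr and Nt5e the deposited lengths were 1898, 2905 and 3995 bases, against 6507, 6049 and 8586 distinct 50-base stretches in their transcripts. For Cd274, Cd276 and Tnfsf9 lengths of 3622, 3603 and 1290 bases were near the 3573, 3698 and 1241 stretches. The order was not computed with other lengths, so places between genes hold for the deposited lengths only.

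**Figure D3:**
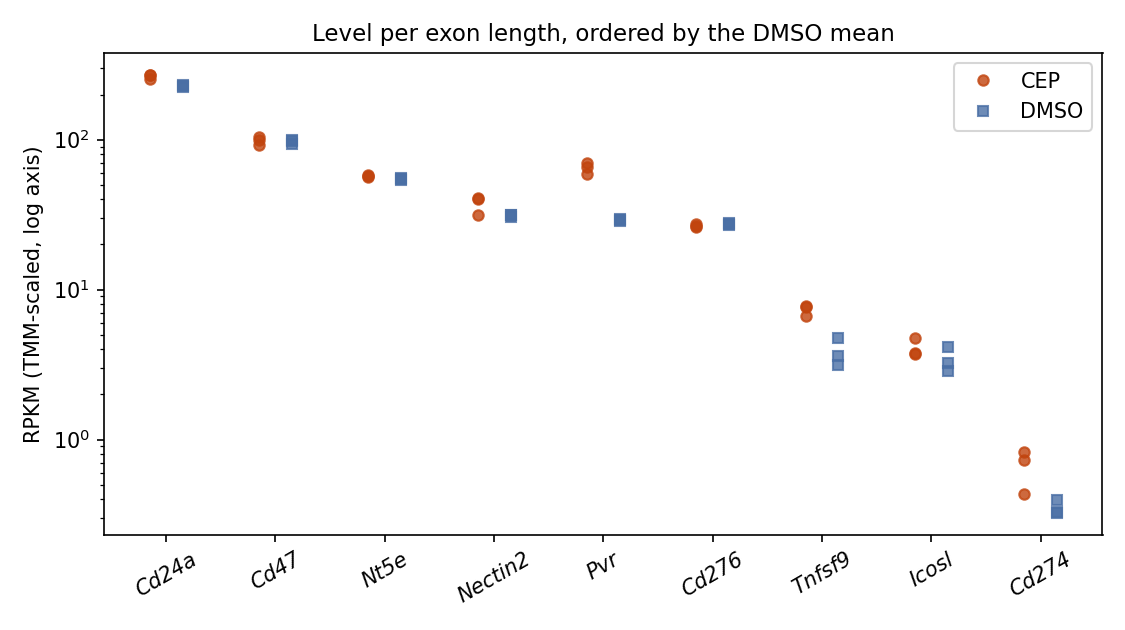
RPKM (log axis, deposited exon lengths) of the ligand genes other than Cd80 in the 3 CEP libraries (circles) and 3 DMSO libraries (squares), ordered by the DMSO mean. Pvr in CEP lies at 59.1 to 69.4, above Nt5e at 56.8 to 58.0, while in DMSO it lies at 28.7 to 29.4, below Nectin2 at 30.6 to 31.6.

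Among 9811 protein-coding genes with at least 5 CPM, those most like Cd274 across the 6 libraries by Pearson correlation of log2 CPM were Adcy6 (r = 0.999), Zfp839 (0.999) and Acer3 (0.998), and 339 genes had r over 0.95. Those most like Pvr were Slc27a1, Hmox1 and Galc, with r = 1.00, 1.00 and 0.999, and 1010 genes had r over 0.95. These points share the same 6 libraries in 2 groups, so the values are a description.

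Receptors of these ligands are best known from immune cells, and 8 of 14 receptor genes examined were too low to test, with Icos, Cd226 and Cd96 at 0 counts in all libraries. Of the 6 tested, 2 rose, 0 fell and 4 did not pass (median log2 fold change 0.53, 0 lower at an unadjusted p under 0.05 and with DESeq2 or limma-voom). For this list, those below and the genes near Cd274, the shares over all tested genes were 20.1% higher and 18.2% lower. Tnfrsf9, the receptor of 4-1BBL, rose with its ligand gene. It had 20.6, 22.2 and 24.3 CPM in CEP, against 7.89, 7.94 and 8.75 CPM in DMSO (log2 fold change 1.44 ± 0.105, edgeR adjusted p = 1.85e-07). The log2 ratio of Tnfsf9 to Tnfrsf9 counts averaged -1.23 ± 0.0620 in CEP and -0.75 ± 0.224 in DMSO (SD, n = 3 each, exact permutation p = 0.10).

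Havcr2, which encodes the inhibitory receptor TIM-3, had 28.05, 26.3 and 26.6 CPM in CEP, against 6.77, 9.72 and 7.88 CPM in DMSO. That was a 3.34-fold rise (log2 fold change 1.74 ± 0.115, edgeR adjusted p = 7.99e-08). Tigit, a receptor of PVR known from T and NK cells, was counted at 73.8, 87.3 and 84.9 CPM in CEP, against 81.2, 78.3 and 78.6 CPM in DMSO. Its groups overlapped (log2 fold change 0.05 ± 0.0635, edgeR adjusted p = 0.601). Cd3e, a defining T cell gene, had 1 read in all libraries together. Of 870 distinct 50-base stretches of Tigit transcripts 4.37% occur in another gene's transcript, and Tigit exons overlap no other gene's exons. Where the reads lie within Tigit was not examined, so its count is uncertain.

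Other checkpoint and costimulatory ligands were examined as a list of 27 genes, 13 of them tested: 5 rose, 1 fell and 7 did not pass (median log2 fold change 0.29). Pdcd1lg2 (PD-L2), Cd86 and Cd70 had 0 counts in all libraries. Lgals3, the gene of galectin-3, rose by 1.35 ± 0.0871 to 453 ± 58.3 CPM in CEP, against 178 ± 9.89 CPM in DMSO (SD, n = 3 each, edgeR adjusted p = 1.75e-06). The adhesion ligand gene Icam1 rose by 0.96 ± 0.138 (19.5 ± 3.58 CPM in CEP and 10.0 ± 1.11 CPM in DMSO). Btn1a1, a butyrophilin gene, rose by 1.04 ± 0.224, Tnfsf15, a TNF-family ligand gene, by 1.67 ± 0.407 at 25 to 34 reads in CEP and 3 to 14 reads in DMSO, and Nectin1 by 0.29 ± 0.0781. The one that fell was Lgals9, the gene of galectin-9, a ligand of TIM-3 (-0.23 ± 0.0649, 44.3 ± 2.75 CPM in CEP and 51.9 ± 1.33 CPM in DMSO, edgeR adjusted p = 0.0124). That call ended without CEP replicate 3 (edgeR adjusted p = 0.0669) or DMSO replicate 2 (0.0534, alternatives 9.16e-04 to 0.0669), and that of Nectin1 ended without DMSO replicate 1 (0.0563, alternatives 0.00311 to 0.0563). Without CEP replicate 1, 2 genes of this list fell.

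Of 25 genes known to act on Cd274 transcription or on PD-L1 protein, all tested, 9 rose, 2 fell and 14 did not pass (median log2 fold change 0.12). Ifngr2, a chain of the interferon-gamma receptor, rose by 0.41 ± 0.0579 (edgeR adjusted p = 8.89e-05), and Hip1r, which carries PD-L1 to lysosomes, rose by 0.48 ± 0.0680. The opposite-strand gene Vps37b covers 12.5% of the Hip1r exon bases and had 2270 reads, so the Hip1r count is uncertain. The NF-kB subunit genes Nfkb1 and Rela rose by 0.25 ± 0.0474 and 0.28 ± 0.0586. Jak2, a kinase of the interferon-gamma receptor, fell to 106 ± 3.91 CPM in CEP, against 155 ± 7.74 CPM in DMSO (-0.54 ± 0.0517, SD over n = 3 each, edgeR adjusted p = 2.59e-06). It lies 100 kb or less from Cd274 on chromosome 19, where 2 of 4 tested genes rose, Cd274 and Plgrkt, and 1 fell. Cops5, whose product deubiquitinates PD-L1, fell by 0.17 ± 0.0514, a call that ended without CEP replicate 2 or 3 or DMSO replicate 2 or 3 (edgeR adjusted p = 0.0768, 0.0565, 0.0668 and 0.0590, alternatives 6.56e-04 to 0.0768). Opposite-strand Cspp1 covers 4.80% of the Cops5 exon bases and had 4716 reads, so the Cops5 count is uncertain too. Without CEP replicate 1, 4 genes of this list fell, and without CEP replicate 2, CEP replicate 3, DMSO replicate 2 or DMSO replicate 3, 1 fell.

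Irf1, a transcription factor of the interferon response that acts on Cd274, had 49.97, 71.0 and 67.3 CPM in CEP, against 49.3, 61.1 and 59.7 CPM in DMSO. Its groups overlapped, and its log2 fold change of 0.14 ± 0.141 did not pass (edgeR adjusted p = 0.470). CEP replicate 1 was the lowest of the CEP libraries for Irf1, and DMSO replicate 1 the lowest of the DMSO libraries.

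CEP replicate 1 was also the lowest of the CEP libraries for 7 of the 9 tested ligand genes, Cd276 and Cd24a being the exceptions. The share of all genes with this order was not computed. Over all 2691 genes called higher, the median log2 difference from the DMSO mean was 0.33, 0.45 and 0.48 in CEP replicates 1, 2 and 3. For the 5 ligand genes called higher the median was 0.29, 1.00 and 1.01 in the same libraries. CEP replicate 1 was the lowest in both sets, with a wider gap in the ligand genes. By these medians the order was not confined to the ligand genes. The log2 difference of Cd274 from its DMSO mean was 0.29 in CEP replicate 1, 1.02 in CEP replicate 2 and 1.17 in CEP replicate 3. For Nectin2 it was 0.02, 0.38 and 0.37 in the same libraries. For Pvr it was 1.02, 1.18 and 1.254, for Tnfsf9 0.81, 1.00 and 1.01, and for Cd24a 0.24, 0.25 and 0.15. Among the 5 genes that rose, the gap between CEP replicate 1 and the other CEP libraries was thus widest for Cd274 and Nectin2. The Cd274 and Nectin2 differences were larger without CEP replicate 1, as given above.

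Adenosine genes around CD73 gave 0 higher and 4 lower among 15 tested of 25, and 11 did not pass (median log2 fold change -0.12). At an unadjusted p under 0.05 there was 1 higher, and there were 0 higher with DESeq2 or limma-voom and 3 higher in edgeR without CEP replicate 1. Without DMSO replicate 3, with the replicate block or with no low-count filter, 1 was higher. Entpd1 (CD39), which can supply AMP to CD73, had 0 counts in all libraries. Entpd3, of the same gene family, was detected at 36.6 ± 10.5 CPM in CEP, against 27.0 ± 2.37 CPM in DMSO (SD, n = 3 each). It did not pass (edgeR adjusted p = 0.183). Slc29a1, which encodes the nucleoside transporter ENT1, fell by 0.50 ± 0.0630 to 55.6 ± 3.61 CPM in CEP, against 79.1 ± 3.97 CPM in DMSO (SD, n = 3 each, edgeR adjusted p = 3.18e-05). Alpl, a phosphatase gene, fell by 0.98 ± 0.134 (5.29 ± 0.568 CPM in CEP and 10.4 ± 0.641 CPM in DMSO). Adk, the adenosine kinase gene, fell by 0.27 ± 0.0591, and the nucleotidase gene Nt5c3b fell by 0.25 ± 0.0645.

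Of 16 genes in the list of CD47 and phagocytosis, 13 were tested: 5 rose, 0 fell and 8 did not pass (median log2 fold change 0.35, 0 lower at an unadjusted p under 0.05 and with DESeq2 or limma-voom). Mfge8, whose product bridges dying cells to phagocytes, rose by 0.54 ± 0.0596 to 426 ± 34.9 CPM in CEP, against 293 ± 12.4 CPM in DMSO (SD, n = 3 each, edgeR adjusted p = 1.05e-05). Lrp1, a receptor for calreticulin, and the integrin gene Itgav rose by 0.37 ± 0.0470 and 0.36 ± 0.0509, and B2m of MHC class I and the sheddase gene Adam17 by 0.38 ± 0.0541 and 0.39 ± 0.0579. Opposite-strand Iah1 covers 4.30% of the Adam17 exon bases and had 1175 reads, so the Adam17 count is uncertain. Calr, the calreticulin gene, and Qpctl, the gene of the enzyme that modifies CD47 for SIRP-alpha binding, did not pass (edgeR adjusted p = 0.107 and 0.0556). Without CEP replicate 1, 9 genes of this list rose and 1 fell, and 1 fell with upper-quartile scaling.

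The list of NK cell ligands had 12 genes, with 8 tested: 3 rose, 0 fell and 5 did not pass (median log2 fold change 0.03, 0 lower at an unadjusted p under 0.05 and with DESeq2 or limma-voom). H2-T23, which encodes the ligand Qa-1 of the inhibitory receptor NKG2A, had 32.5, 56.7 and 62.2 CPM in CEP, against 23.6, 25.7 and 23.3 CPM in DMSO. CEP replicate 1 was the lowest of the CEP libraries. Its log2 fold change was 1.06 ± 0.264 (edgeR adjusted p = 0.0277), a call that ended under limma-voom (adjusted p = 0.0608), with no low-count filter (0.104) and in edgeR without CEP replicate 2 or 3 (0.0866 and 0.0599) or DMSO replicate 1, 2 or 3 (0.0669, 0.0684 and 0.0922, alternatives 2.98e-17 to 0.104). Of its 50-base stretches 14.5% occur in another gene's transcript, so its count is uncertain. Ulbp1, a gene for an NKG2D ligand, rose by 0.21 ± 0.0566, and Cdh1, the E-cadherin gene and a ligand of KLRG1, by 0.39 ± 0.0611. The call of Ulbp1 ended without CEP replicate 2 (edgeR adjusted p = 0.0584, alternatives 8.90e-07 to 0.0584), and without that library 1 gene of this list rose. Without CEP replicate 1, 1 gene fell.

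**Figure D4:**
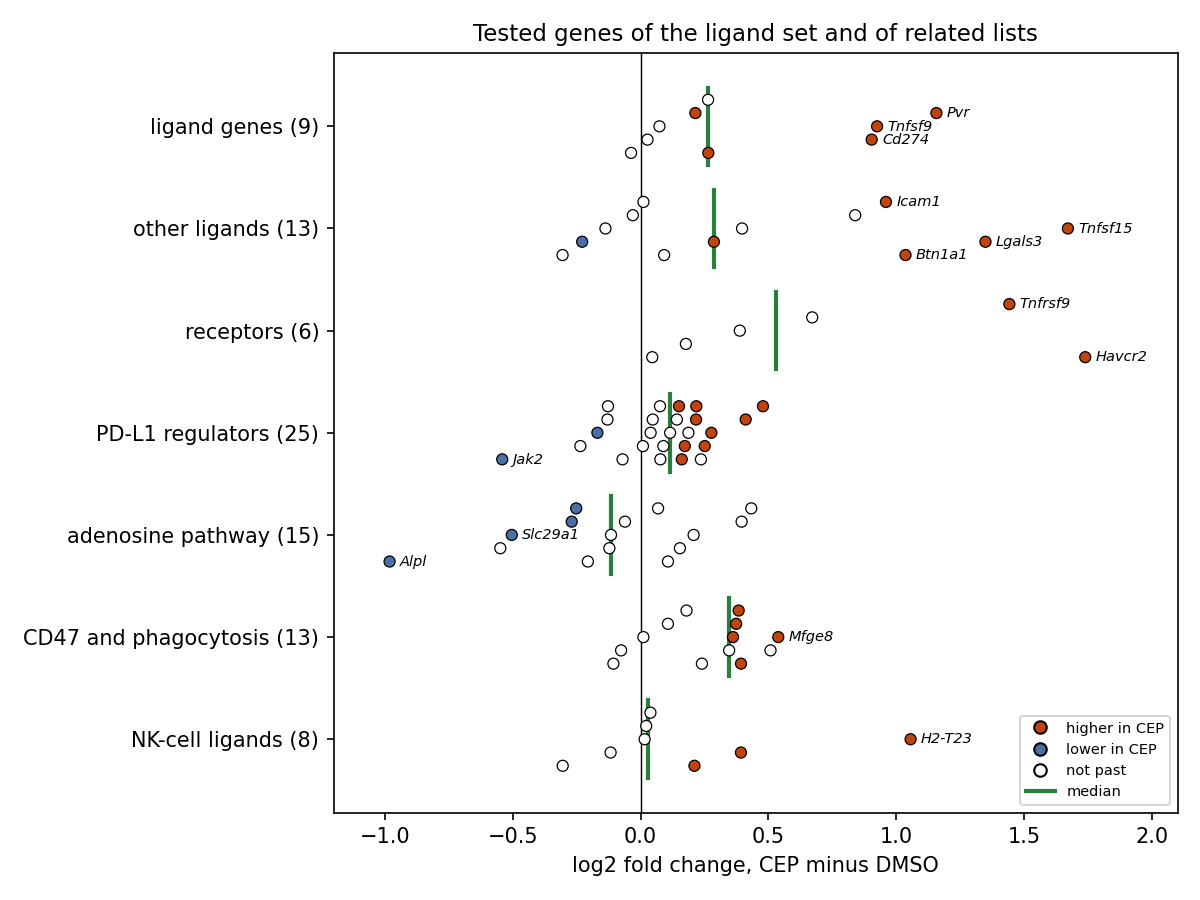
Log2 fold change (CEP minus DMSO) of the tested genes of the ligand set and of 6 related lists (number tested in brackets), red where higher in CEP and blue where lower in CEP at an edgeR adjusted p under 0.05, with the median of each list as a green line. The adenosine list is the one with a median below 0, at -0.12, and Havcr2, Tnfsf15 and Tnfrsf9 lie farthest to the right.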

How the data were processed

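Poly(A) RNA of 3 CEP and 3 DMSO libraries was sequenced after strand-marking library preparation, per the labels' protocols. The deposited table holds whole-number read counts per Ensembl gene, not normalised, on GRCm38.p6 per the file headers, with the exon length of each gene deposited beside them. Per the submitters' processing notes the tools included HISAT2, HISAT, HTSeq and DESeq2, with build GRCm38. Roles, strand setting and filters: not given in the sources used here. Groups and replicate numbers came from sample titles, and 0 columns belonged to other samples.

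Genes passing edgeR filterByExpr (minimum count 10, minimum total 15) were TMM-scaled. The main test was edgeR's quasi-likelihood F test (robust, group as the only term), with Benjamini-Hochberg adjustment over 13405 genes. Each SE was obtained by dividing the size of the log2 fold change by the root of F. On simulated counts for these genes the test recovered 90% of 2-fold and 60% of 1.25-fold changes, with 10 false calls of 172. The simulation changed a far smaller share of genes than was called in the data. It also held no library that stood apart as CEP replicate 1 did, so these rates may not hold for the data. Members and lists were chosen with earlier results of these data known. All members are named, plus up to 4 genes per list and direction by smallest adjusted p, and genes in counts of 5 or fewer. Genes near Cd274, Pvr and Nectin2, and those of overlapping position, were taken by position. Some genes that did not pass (Irf1, Tigit, Calr, Qpctl and Entpd3) and those at 0 were chosen after their values were seen. Alternatives were other scaling, filters, DESeq2, limma-voom, a replicate block, a stricter threshold and each library left out. Some list and marker genes are not reported here by name. Intervals cover counting error only. Software was Python 3.11.15 with scipy 1.17.1, and DESeq2 1.42.0, limma 3.58.1 and edgeR 4.0.16 under R 4.3.3.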

Additional observations from a re-analysis of the deposited data

How the results depend on the processing

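Of the 135 values that the 9 tested ligand genes took under 15 alternatives each, 120 kept their direction and their side of the threshold, 13 lost the call, all of them of Cd274 or Nectin2, and 2 changed sign, both of Cd47, which was not called. Cd47 stood at -0.00357 with upper-quartile scaling, and between -0.0129 and 0.0597 when 1 library was left out. With 1 library left out, 3 to 5 ligand genes rose, and 3 rose at an adjusted p under 0.01, where 1783 genes of all tested were higher and 1524 lower. With the replicate block 5 ligand genes rose and 0 fell, with 2595 genes of all tested higher and 2301 lower. The deviations of same-numbered libraries correlated at -0.05, 0.02 and -0.04, and those of differently numbered libraries at -0.05 to 0.07. No effect shared by same-numbered libraries was seen. These values cannot decide whether the libraries were paired, because no source tells how the replicates were made. Cd274 rests on 18 to 51 reads per library and Cd80 on at most 2, so depth limits both.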
